A study of Mus musculus with 36 samples.

Results

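The question addressed was how the effect of losing the type I IFN receptor on spleen dendritic cells (DCs) changed between 4 and 14 h after poly IC. The measure was the interaction, defined for each gene as IFNAR-/- minus WT at 14 h less IFNAR-/- minus WT at 4 h, on the log2 scale. It used 22 of the 36 arrays of the series, chosen by their titles. They comprised 8 WT samples and 5 arrays of IFNAR-/- DCs at 4 h, and 6 WT and 3 IFNAR-/- samples at 14 h. All mice were of the C57BL/6 background and bore a mixed bone marrow graft, so that WT and knockout DCs developed and were stimulated side by side. Each mouse received 50 µg poly IC, a synthetic double-stranded RNA, into the peritoneum, and CD11chi CD3- DX5- B220- DCs were sorted from the spleen by CD45.2. The study describes samples as pools of several mice. The labels do not say which mice gave which sample, whether WT and IFNAR-/- samples share mice, or whether the WT samples at 4 h came from chimeras with IFNAR-/- or with PRR-/- (MDA5xTLR3-/-) marrow, so p-values measure the spread between these samples, which may be technical.

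Type I IFNs, a single IFN-β and many IFN-α proteins, bind a receptor made of IFNAR1 and IFNAR2, which acts through JAK kinases to switch on IFN-stimulated genes. Double-stranded RNA is also read by TLR3 and MDA5, which switch on the Ifnb1 gene and NF-κB targets without the receptor. In spleen DCs type I IFN is known for its part in maturation, the programme of costimulatory molecules, cytokines, migration and antigen presentation that prepares a DC to prime T cells.

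The gene targeted in the knockout could not be used to check the labels, because its single probe (Ifnar1) was above background on 0 of 36 arrays. Of the 22 arrays, 10428 to 12326 probes (40.6% to 48.0%) had a detection p-value under 0.05. Arrays 1 and 2 of IFNAR-/- DCs at 4 h differed by a median of 0.0832 log2 units per probe against 0.134 to 0.323 for the other pairs of that group, and were averaged and counted as 1 sample, which left 21 samples. WT 14 h replicate 6 stood furthest from its group. Conventional DC markers were high in all 4 groups, with a mean log2 signal of 10.85 to 11.45 over the 8 measured, and Zbtb46, a transcription factor of that lineage, was the 1 called (interaction -1.08 ± 0.22 SE, adjusted p = 0.000668). Of the erythroid, NK cell and B cell markers, 9 of 15, 6 of 12 and 7 of 13 listed were measured, and 0 were called. Of the 10 T cell markers measured (15 listed) only Cd8b1 was. Over all genes tested 7.02% were called, so 0 or 1 call in lists this small is near that share. Each list of DC subset markers held called members: Pacsin1 above and Spib below 0 of 10 for plasmacytoid DCs, Itgae above and Ly75 below 0 of 10 for cDC1, and Irf4 and Esam, both below 0, of 12 for cDC2.

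Of 9606 genes tested, 674 (7.02%) had a genotype difference that changed with time, at an adjusted p under 0.05 (limma, Benjamini-Hochberg) and an interaction of at least 2-fold. In 370 (3.85%) the interaction was above 0, so that IFNAR-/- DCs stood higher relative to WT at 14 h than at 4 h, and in 304 (3.16%) it was below 0. For comparison, the same limits called 444 genes (4.62%) between the genotypes at 4 h and 925 (9.63%) at 14 h, 608 (6.33%) between WT DCs at 14 and 4 h and 188 (1.96%) between IFNAR-/- DCs at the same times. These contrasts use the same arrays as the interaction and describe how each call arose. The time contrast rests on 8 and 6 samples in WT DCs and on 4 and 3 in IFNAR-/- DCs. Fewer changes of a given size can therefore pass in IFNAR-/- DCs. Over all genes the 2 genotype differences had a Pearson correlation of 0.533 and a Spearman correlation of 0.433 across 9606 genes, which are not independent replicates.

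The called genes fell into 5 classes. A genotype difference was called at 14 h only for 354 genes (52.5%), at 4 h only for 118 (17.5%), at both times in the same direction for 15 (2.23%), at both times in opposite directions for 7 (1.04%) and at neither time alone for 180 (26.7%). The absolute difference was wider at 14 h for 467 of the 674 genes and narrower for 207. Between 4 and 14 h, 344 genes passed the limits in WT DCs only, 86 in IFNAR-/- DCs only, 20 in both and 224 in neither. With fewer IFNAR-/- samples, failing the limits there does not show that a gene stayed unchanged. In whole sorted samples, fewer cells of a type and less RNA per cell cannot be told apart, and this holds for every level given here.

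**Figure D1:**
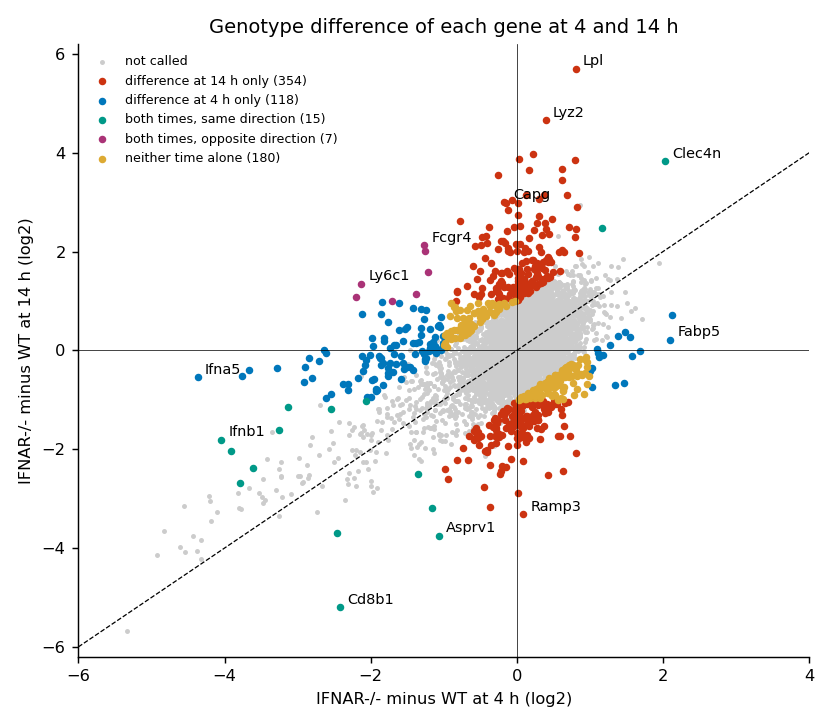
Each point is a gene, with the log2 difference IFNAR-/- minus WT at 4 h on the x axis and at 14 h on the y axis, and the 674 called genes coloured by class. Points above the dashed diagonal have an interaction above 0. Lpl lies at 0.80 and 5.70, Ifna5 at -4.37 and -0.55, and Cd8b1 at -2.43 and -5.20.

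**Figure D2:**
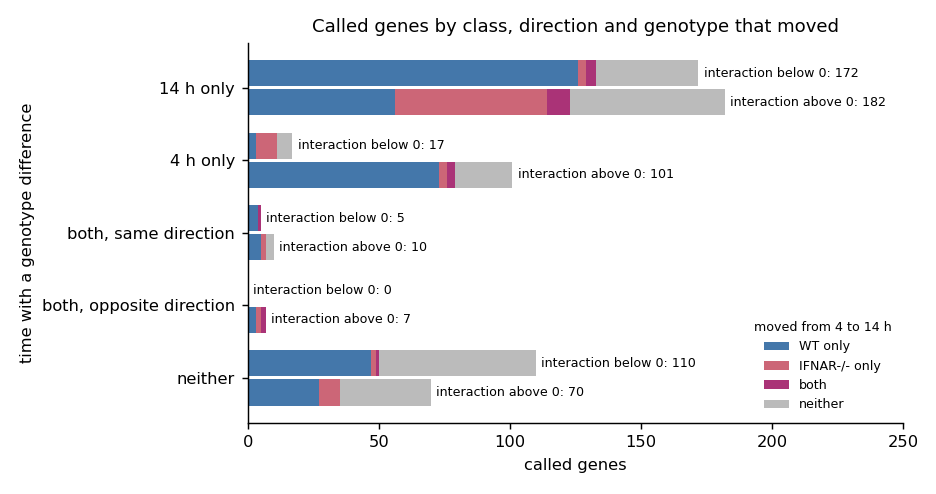
Bars give the number of called genes in each class, split by the sign of the interaction and coloured by the genotype that itself passed the limits between 4 and 14 h. Among genes with a difference at 14 h only, 126 of the 172 with an interaction below 0 moved in WT DCs only, against 56 of the 182 with an interaction above 0.

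Promoters were read because the IFN response element is a known site of IFN-stimulated genes, bound by factors of the IRF family. Of the tested genes, 7865 had a promoter in RefSeq (GRCm38.p6), taken as 250 bases before to 50 after the gene start. The letters GAAANNGAA on either strand, in the window, were found in 7.77% of all 7865. They were found in 21 of 89 promoters (23.6%) of genes with a difference at 4 h only and an interaction above 0, and in 12 of 80 (15.0%) once the type I IFN genes, which are near copies of each other, were left out. The share was 21 of 145 (14.5%) for genes with a difference at 14 h only and an interaction above 0, 8 of 140 (5.71%) for those below 0, and 6 of 150 (4.00%) for genes called at neither time alone. The gamma-activated element TTCNNNGAA, which can overlap the first motif, was in 7.07% of all promoters and in 12.4%, 11.7% and 7.86% of these 3 groups in the order given, without the genes called at neither time. With the type I IFN genes left out, the first share was 5 of 80 (6.25%). The hypoxia element ACGTG was in 25.4% of all promoters and in 15.7%, 21.4% and 24.3% of the same groups. The 4 promoters below are shown 5′ to 3′ along the gene, with matches to the IFN response element in capitals. The first 3 belong to genes with a difference at 4 h only: Ifna5 at chr4:88835275-88835574 on the + strand with 1 match, Ifna2 at chr4:88683730-88684029 on the - strand with 2, and Lgals9 at chr11:78984875-78985174 on the - strand with 2, which run along the opposite strand to the gene. The last, Ramp3 at chr11:6658283-6658582 on the + strand, belongs to a gene with a difference at 14 h only and has 0 matches in this window. A match is a description of the letters and not a measured site.
Ifna5: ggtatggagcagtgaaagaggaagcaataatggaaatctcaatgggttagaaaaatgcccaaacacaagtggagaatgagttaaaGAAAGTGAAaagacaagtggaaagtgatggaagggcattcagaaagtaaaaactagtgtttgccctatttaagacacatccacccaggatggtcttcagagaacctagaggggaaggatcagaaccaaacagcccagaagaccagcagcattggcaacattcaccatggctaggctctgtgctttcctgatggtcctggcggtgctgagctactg
Ifna2: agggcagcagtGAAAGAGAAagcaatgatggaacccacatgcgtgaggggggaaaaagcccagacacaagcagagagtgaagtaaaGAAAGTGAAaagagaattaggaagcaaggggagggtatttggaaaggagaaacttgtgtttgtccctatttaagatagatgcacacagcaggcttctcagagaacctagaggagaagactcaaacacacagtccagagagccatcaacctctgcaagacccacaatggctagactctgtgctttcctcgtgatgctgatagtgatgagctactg
Lgals9: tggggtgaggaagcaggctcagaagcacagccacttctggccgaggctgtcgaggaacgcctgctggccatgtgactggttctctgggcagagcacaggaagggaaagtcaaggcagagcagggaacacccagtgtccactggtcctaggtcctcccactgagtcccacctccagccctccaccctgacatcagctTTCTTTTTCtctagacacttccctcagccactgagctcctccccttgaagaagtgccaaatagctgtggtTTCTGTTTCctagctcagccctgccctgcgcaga
Ramp3: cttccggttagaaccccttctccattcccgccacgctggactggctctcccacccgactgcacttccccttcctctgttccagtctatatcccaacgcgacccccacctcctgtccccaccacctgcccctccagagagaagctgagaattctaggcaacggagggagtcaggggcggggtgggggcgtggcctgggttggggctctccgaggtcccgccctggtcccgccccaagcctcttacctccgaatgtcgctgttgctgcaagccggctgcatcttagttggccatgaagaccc

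Lpl, Lyz2 and C1qb had the largest interactions of all genes, and each was not called between the genotypes at 4 h and was higher in IFNAR-/- DCs at 14 h. Lpl encodes lipoprotein lipase, which frees fatty acids from triglyceride. At 4 h its log2 signal was 6.49, 6.92 and 7.97 (lowest, median and highest) in WT DCs and 8.14, 8.13, 7.44 and 7.63 in IFNAR-/- DCs. At 14 h the signal was 6.49, 6.49 and 6.70 in WT DCs, where it was above background on 2 of 6 arrays, and 12.40, 12.04 and 12.27 in IFNAR-/- DCs. The groups overlapped at 4 h and were far apart at 14 h, when the mean of Lpl was at least 52.1-fold higher in IFNAR-/- DCs, a lower bound because most WT arrays were not above background. Its interaction was 4.90 ± 0.46 (SE, adjusted p = 6.12e-09), and its rise in IFNAR-/- DCs was the only time change past the limits. Nr1h3, which encodes the oxysterol receptor LXRα, ranged over 8.49, 9.13 and 9.87 in WT DCs at 4 h and was 8.88, 9.73, 8.83 and 8.44 in IFNAR-/- DCs. By 14 h it was 7.14, 7.56 and 7.96 in WT DCs against 11.28, 10.98 and 11.08 in IFNAR-/- DCs, with no overlap, and it fell in WT and rose in IFNAR-/- DCs (interaction 3.79 ± 0.37, adjusted p = 1.12e-08). Capg, an actin filament capping protein, was chosen after its values were seen, for the smallest adjusted p of all 9606 genes (3.48e-15). Its signal was 6.78 to 7.34 in every WT and every 4 h sample and 10.16, 9.80 and 9.90 in IFNAR-/- DCs at 14 h (interaction 3.13 ± 0.15).

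Genes known from monocytes and macrophages were among those with the largest interactions in this class. Lyz2 encodes lysozyme, an abundant product of monocytes and macrophages. Its log2 signal at 4 h was 11.50, 12.22 and 12.98 in WT DCs and 13.19, 12.27, 12.21 and 12.73 in IFNAR-/- DCs. At 14 h the WT samples were spread from 8.63 through a median of 10.20 to 12.18, and the IFNAR-/- samples were 15.03, 15.02 and 14.89, all above every WT sample. The interaction was 4.26 ± 0.72 (adjusted p = 8.1e-05). C1qb, a chain of complement C1q, went from 7.24, 8.53 and 9.92 in WT DCs at 4 h to 6.77, 7.31 and 7.60 at 14 h. In IFNAR-/- DCs it went from 8.66, 9.15, 7.84 and 8.56 to 11.22, 11.21 and 11.04, so that it fell in one genotype and rose in the other (interaction 3.86 ± 0.56, adjusted p = 9.29e-06). Cd14, the LPS coreceptor, was named after its values were seen. It fell in WT DCs from a median of 10.29 to 7.59 and was 11.77, 11.15 and 10.90 in IFNAR-/- DCs at 14 h (interaction 3.49 ± 0.59, adjusted p = 7.15e-05).

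Marker lists of other cell types, some of which hold Lyz2, Cd14 or C1qb themselves, moved in the same direction. Of the 6 monocyte markers measured (10 listed), 4 were called, all with an interaction above 0 (Cd14, Fcgr4, Lyz2 and F13a1), against 7.02% of all genes. The median of the 6 was 2.21 against -0.00537 over all genes. Their summed signal was 7955 to 22510 in WT and 8532 to 14790 in IFNAR-/- DCs at 4 h, and 1368 to 7295 in WT and 35890 to 40760 in IFNAR-/- DCs at 14 h. Lyz2 alone made up most of that last sum. The mean log2 signal, which weighs each marker alike, was 9.31 to 10.04 in WT and 9.29 to 9.66 in IFNAR-/- DCs at 4 h. At 14 h it was 7.55 to 9.05 in WT and 10.14 to 10.40 in IFNAR-/- DCs. Of 16 red pulp macrophage markers, 8 were called above 0 (C1qa, C1qb, C1qc, Hmox1, Slc40a1, Mertk, Fcgr1 and Treml4), with a median of 1.61. Their mean log2 signal at 14 h was 7.81 to 8.07 in WT and 8.82 to 9.00 in IFNAR-/- DCs, while their summed signal overlapped (8377 to 14290 and 11460 to 15740) and Cd163, a defining marker, was above background on 0 of the 22 arrays. Of 11 neutrophil markers, 2 were called above 0 (Csf3r and Hp), against 3.85% of all genes. The list's summed signal was 1168 to 3651 in WT DCs at 14 h and 4715 to 15480 in IFNAR-/- DCs, the highest in replicate 1. The part of these cells in the interaction was not tested.

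Some chemokine and cytokine genes that draw or activate myeloid cells were found in the same class, and others were called in other classes. Cxcl2, a ligand of the neutrophil receptor CXCR2, was 7.60, 9.29 and 10.19 in WT DCs at 4 h and 9.31, 9.27, 8.68 and 8.98 in IFNAR-/- DCs. By 14 h Cxcl2 was at 6.49, 6.54 and 7.05 in WT DCs, near background, and 9.77, 8.54 and 9.19 in IFNAR-/- DCs, so that the genotypes overlapped at 4 h and not at 14 h (interaction 2.49 ± 0.55, adjusted p = 0.00153). Cxcl2 fell in WT DCs and did not pass the limits between times in IFNAR-/- DCs. Il1a, which encodes the inflammatory cytokine IL-1α, did the reverse. It was 6.49 to 7.38 in all samples but those of IFNAR-/- DCs at 14 h, where it was 8.90, 8.32 and 8.81 (interaction 2.12 ± 0.24, adjusted p = 1.57e-07). Of 13 chemokine genes measured, 6 were called above 0 and 1 below (Ccl17, a ligand of CCR4), against 3.85% and 3.16% of all genes. Among the 6, Cxcl9 had a difference at 4 h only and Ccl12 at both times in opposite directions. The list's median genotype difference was -0.486 at 4 h and 0.715 at 14 h, and its median interaction 1.02. Without WT 14 h replicate 6 the counts were 6 and 0. Of 16 cytokine genes, 5 were called above 0 and 0 below (Il10, Il27, Il18, Il1a and Tgfb1), against the same shares of all genes. The median of the list was 0.549, and leaving out WT 14 h replicate 6 left 3 of the calls. Only Il1a of these had a difference at 14 h only. Il10, Il18 and Tgfb1 were called at neither time alone, and Il27 was lower in IFNAR-/- DCs at both times.

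The opposite pattern was a time change that passed the limits in WT DCs only. It was found in 126 of the 172 genes with a difference at 14 h only and an interaction below 0. Ramp3 encodes a protein that alters the ligand choice of the calcitonin receptor family. Its log2 signal at 4 h was 6.69, 6.98 and 7.54 in WT DCs and 7.30, 6.91, 7.14 and 7.16 in IFNAR-/- DCs. At 14 h it was 9.37, 10.71 and 11.85 in WT DCs and 7.14, 6.89 and 7.86 in IFNAR-/- DCs, with every WT sample higher (9.97-fold between means). The interaction was -3.41 ± 0.58 (adjusted p = 9.23e-05). Tspan3, a tetraspanin of cell membranes, behaved likewise at a higher level. It was 11.18, 11.79 and 12.16 in WT and 12.45, 12.09, 12.50 and 12.46 in IFNAR-/- DCs at 4 h, and 13.32, 14.19 and 14.77 against 11.31, 11.72 and 11.93 at 14 h (interaction -3.07 ± 0.43, adjusted p = 6.67e-06). Eno2, an enolase isoform of glycolysis best known from neurons, was 10.29, 10.83 and 11.46 in WT and 8.18, 8.51 and 8.31 in IFNAR-/- DCs at 14 h, after 7.58, 8.23 and 8.74 against 8.21, 8.55, 9.01 and 8.49 at 4 h (interaction -2.94 ± 0.35, adjusted p = 3.63e-07).

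Tnfrsf4, which encodes the costimulatory receptor OX40 and is not in the costimulation and maturation list, was also in this class. At 4 h it was 8.43, 8.70 and 9.55 in WT DCs and 8.49, 8.88, 9.43 and 8.53 in IFNAR-/- DCs, which overlapped. By 14 h Tnfrsf4 stood at 12.62, 13.27 and 13.57 in WT DCs and 10.08, 9.76 and 10.92 in IFNAR-/- DCs, so that it rose in both genotypes and by more in WT (interaction -2.90 ± 0.38, adjusted p = 2.22e-06). Fscn1, the actin bundler of mature DC dendrites, was 10.26, 10.91 and 11.77 in WT and 10.22, 11.21, 11.11 and 9.91 in IFNAR-/- DCs at 4 h. It was 12.63, 13.24 and 13.72 in WT and 10.49, 10.32 and 11.79 in IFNAR-/- DCs at 14 h, with replicate 3 closest to WT (interaction -1.96 ± 0.50, adjusted p = 0.00561). Of the 21 costimulation and maturation genes measured, 5 were called below 0 (Fscn1, Socs2, Relb, Cd80 and Slamf1) and 1 above (Cd44, a hyaluronan receptor), against 3.16% and 3.85% of all genes. An interaction above 0 was found in 3 of the 21, against 4619 of all 9606 genes. The median genotype difference was -0.115 at 4 h and -1.09 at 14 h, and the median interaction -0.76. Slamf1 differs from the other called members, since it was above background on 5 of 5 arrays of IFNAR-/- DCs and 1 of 8 of WT DCs at 4 h, and its difference was at 4 h only. Without IFNAR-/- 14 h replicate 3, 10 members were called below 0, and over all single samples left out the count ranged from 2 to 10.

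Among NF-κB and TNF pathway genes, 3 of 20 were called below 0 (Birc2, Relb and Ikbkb) and 1 above (Tnfrsf1a), against 3.16% and 3.85% of all genes. The median interaction of the list was -0.434. Birc2, which encodes the ubiquitin ligase cIAP1, was 12.70, 13.62 and 14.24 in WT DCs at 14 h against 11.36, 11.71 and 12.55 in IFNAR-/- DCs. At 4 h it had been 11.60, 11.96 and 12.30 in WT against 12.38, 11.82, 12.14 and 11.96 (interaction -1.86 ± 0.32, adjusted p = 0.000107). Irf1, a transcription factor of the IFN and NF-κB responses, had a genotype difference of 0.00 at 4 h and -1.41 at 14 h, where the WT samples were 13.86, 14.46 and 14.88 and the IFNAR-/- samples 13.15, 12.98 and 12.75 (interaction -1.41 ± 0.26, adjusted p = 0.000253). Its groups overlapped at 4 h and not at 14 h.

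**Figure D3:**
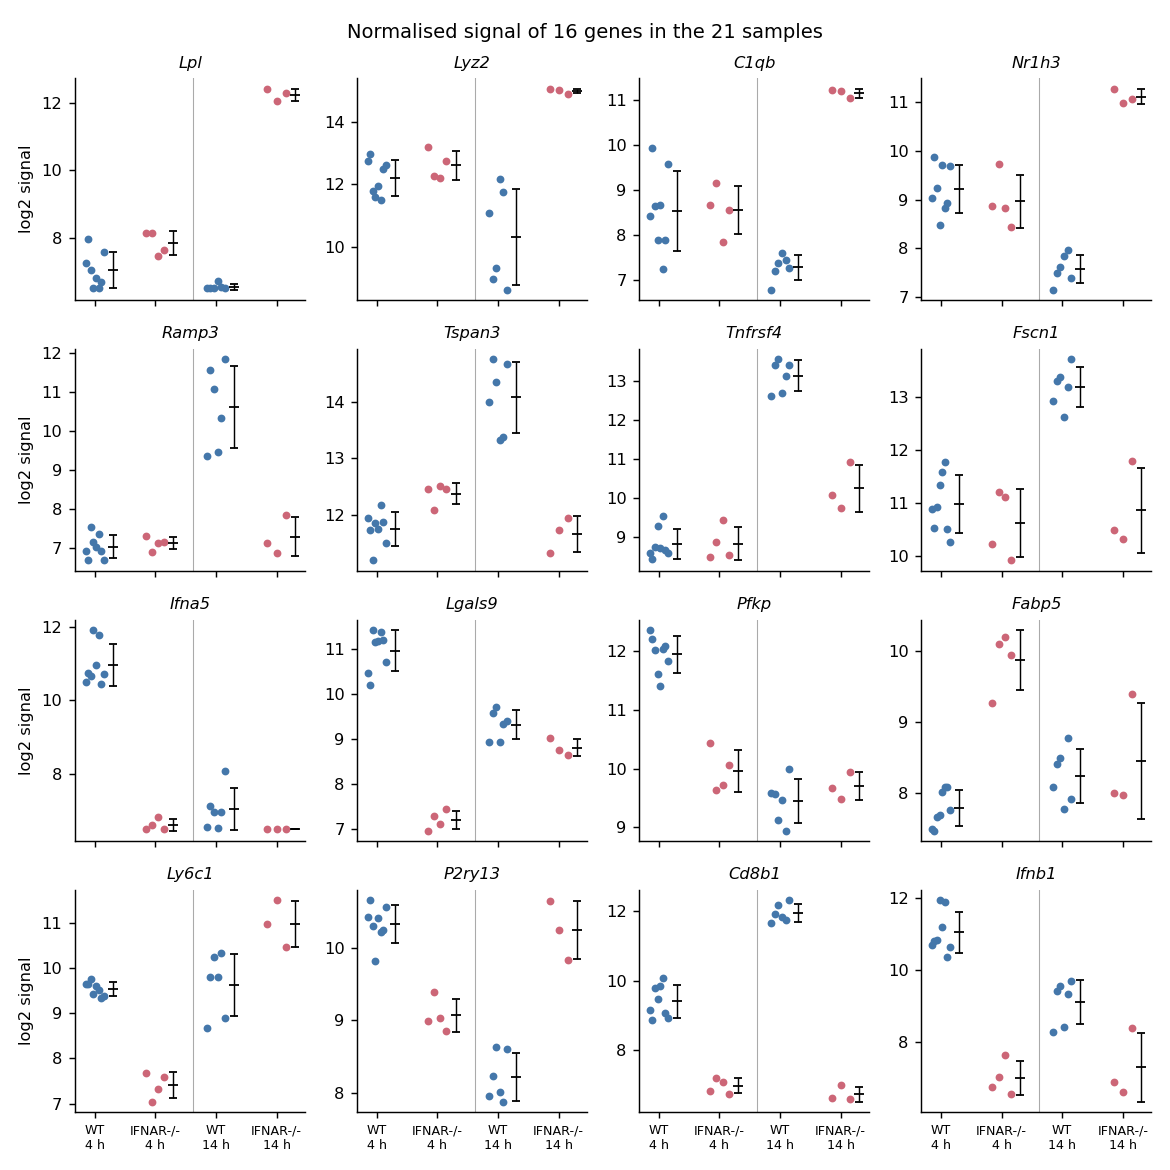
Each point is a sample and gives the quantile normalised log2 signal of 1 gene, with WT in blue and IFNAR-/- in red, and bars beside the points give the mean and SD. The rows show, from the top, genes higher in IFNAR-/- DCs at 14 h only, genes higher in WT DCs at 14 h only, genes with a difference at 4 h only, and genes with a difference at both times. Lpl reaches 12.04 to 12.40 in IFNAR-/- DCs at 14 h and stays at or under 8.14 in all other samples.

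Of the 118 genes with a difference at 4 h only, 101 had an interaction above 0, and 73 of these passed the limits between times in WT DCs only. Type I IFN genes had the largest interactions of this class. Ifna5 was 10.46, 10.74 and 11.93 in WT DCs at 4 h and 6.49, 6.60, 6.83 and 6.49 in IFNAR-/- DCs, where 2 of 5 arrays were above background. At 14 h it was 6.53, 6.97 and 8.08 in WT DCs and above background on 0 of 3 arrays of IFNAR-/- DCs. The WT samples lay above all IFNAR-/- samples at both times, with at least 20.7-fold between the means at 4 h. At 14 h the means differed by 0.55, and the lowest WT sample, at 6.53, was close to the floor of 6.49. The interaction was 3.82 ± 0.36 (adjusted p = 5.26e-09), and since knockout values at both times include the floor, its exact size is not measured. Ifna2 went from 9.83, 9.92 and 11.23 to 6.50, 6.81 and 7.77 in WT DCs and was above background on 1 of 5 and 0 of 3 arrays of IFNAR-/- DCs, so that the same limit holds for its interaction (3.28 ± 0.32, adjusted p = 1.13e-08). Ifna14 was above background only in WT DCs at 4 h (8.60, 8.90 and 10.18), which put its mean at least 6.25-fold higher there than in IFNAR-/- DCs, and it allows no fold at 14 h. Ifna15, which is not in the type I IFN list, was called as well (2.92 ± 0.33, adjusted p = 1.56e-07). Of the 13 genes of the list, 9 were measured, and all 9 were called above 0, against 3.85% of all genes. Their median genotype difference was -2.62 at 4 h and -0.259 at 14 h. Members such as Ifna14 could pass the detection filter through WT DCs at 4 h alone, so the count and medians partly reflect that filter. The Ifna genes are close copies, so their probes may share signal and the single members are uncertain.

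Lgals9, which encodes galectin-9, a lectin that binds TIM-3, had the largest interaction of this class after Ifna5 and Ifna2. It was 10.19, 11.16 and 11.42 in WT and 6.95, 7.28, 7.11 and 7.44 in IFNAR-/- DCs at 4 h, and 8.92, 9.36 and 9.69 against 9.01, 8.75 and 8.64 at 14 h. The groups were far apart at 4 h and overlapped at 14 h, with a fall in WT and a rise in IFNAR-/- DCs (interaction 3.26 ± 0.37, adjusted p = 2.08e-07). Pfkp, the platelet isoform of the glycolytic enzyme phosphofructokinase, was 11.41, 12.03 and 12.36 in WT DCs at 4 h against 10.43, 9.64, 9.72 and 10.05 in IFNAR-/- DCs. By 14 h the values were 8.94, 9.51 and 10.00 in WT against 9.67, 9.48 and 9.95 in IFNAR-/- DCs, which overlapped (interaction 2.24 ± 0.34, adjusted p = 1.74e-05). Psmb10, a subunit of the immunoproteasome, was 13.16, 13.29 and 13.44 in WT DCs at 4 h and 11.86, 12.11, 11.79 and 11.87 in IFNAR-/- DCs. At 14 h its groups overlapped, and the genotype difference was -1.39 at 4 h and -0.07 at 14 h (interaction 1.33 ± 0.21, adjusted p = 3.89e-05). It was the only called gene of the 16 in the MHC class I list, a share close to the 7.02% of all genes. Ch25h, which makes 25-hydroxycholesterol, was 7.99, 8.30 and 9.04 in WT DCs at 4 h and near background elsewhere (interaction 1.71 ± 0.19, adjusted p = 1.19e-07).

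In 17 genes with a difference at 4 h only the interaction was below 0, and 8 of them moved in IFNAR-/- DCs only. Fabp5, a fatty acid binding protein, was 7.46, 7.73 and 8.09 in WT DCs at 4 h and 9.27, 10.11, 10.21 and 9.95 in IFNAR-/- DCs. The 14 h values were 7.77, 8.24 and 8.78 in WT and 8.00, 7.97 and 9.40 in IFNAR-/- DCs, of which 1 lay above the WT range (interaction -1.88 ± 0.33, adjusted p = 0.00012). Lad1, Flrt3 and Mical3 had a genotype difference of 1.47, 1.34 and 1.02 at 4 h and of -0.66, -0.71 and -0.74 at 14 h, where Mical3 was lower in each IFNAR-/- sample than in any WT sample.

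A difference at both times in the same direction was found for 15 genes, 7 of them wider at 14 h and 8 narrower. Cd8b1 encodes the β chain of CD8 and is used here as a T cell marker. It was 8.86, 9.32 and 10.08 in WT and 6.85, 7.22, 7.09 and 6.75 in IFNAR-/- DCs at 4 h, and 11.66, 11.89 and 12.31 against 6.63, 6.99 and 6.61 at 14 h. It rose in WT DCs only, and its genotype gap widened from 5.38-fold to 36.7-fold (interaction -2.77 ± 0.40, adjusted p = 9.87e-06), while the other 9 T cell markers measured were not called. Asprv1, an aspartic protease of skin, went from 8.25, 8.85 and 9.29 in WT DCs to 12.07, 12.57 and 12.89, and in IFNAR-/- DCs from 7.71, 7.43, 8.11 and 7.73 to 8.71, 8.74 and 8.97 (interaction -2.68 ± 0.37, adjusted p = 5.35e-06). It rose in both genotypes. Clec4n, which encodes the fungal receptor dectin-2, was the reverse case, 4.07-fold higher in IFNAR-/- DCs at 4 h and 14.2-fold at 14 h. It was 8.48, 8.95 and 9.40 in WT and 11.08, 11.04, 10.78 and 10.96 in IFNAR-/- DCs at 4 h, and 7.32, 7.62 and 8.15 against 11.27, 10.88 and 12.31 at 14 h (interaction 1.80 ± 0.34, adjusted p = 0.000259).

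The gap narrowed for cytokine genes that fell in WT DCs. Ifnb1, the IFN-β gene, was 10.37, 10.82 and 11.93 in WT DCs at 4 h and 6.75, 7.02, 7.65 and 6.56 in IFNAR-/- DCs, and 8.28, 9.38 and 9.70 against 6.91, 6.61 and 8.40 at 14 h. IFNAR-/- replicate 3 at 14 h reached into the WT range. The genotype difference went from -4.04 to -1.81 (interaction 2.23 ± 0.46, adjusted p = 0.00081). Il27, a subunit of the cytokine IL-27, went from a difference of -3.13 to -1.15 (interaction 1.98 ± 0.42, adjusted p = 0.00108), with 10.15, 10.61 and 11.07 in WT DCs at 4 h and 7.67, 8.75 and 9.63 at 14 h, and 7.49, 7.61, 7.72 and 6.99 and then 6.99, 6.74 and 8.64 in IFNAR-/- DCs. As for Ifnb1, IFNAR-/- replicate 3 at 14 h lay within the WT range, and with 1 sample left out the interaction of Il27 was 1.39 to 2.34. Lgals3bp, a galectin-binding glycoprotein, narrowed by another route, since it rose in IFNAR-/- DCs from 8.63, 8.72, 8.50 and 8.50 to 10.54, 10.58 and 9.81 and stayed at 11.74 to 13.09 in all WT samples (interaction 1.88 ± 0.50, adjusted p = 0.00811).

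The genotype difference turned over in 7 genes (Ly6c1, Fcgr4, Chil1, P2ry13, Ccl12, Hk3 and Plin2), all lower in IFNAR-/- DCs at 4 h and higher at 14 h. Ly6c1, a surface protein of the Ly6C group, was 9.34, 9.55 and 9.76 in WT and 7.67, 7.05, 7.32 and 7.59 in IFNAR-/- DCs at 4 h. At 14 h it was 8.68, 9.79 and 10.33 in WT and 10.96, 11.49 and 10.47 in IFNAR-/- DCs, so that the groups were apart at both times with the order reversed (interaction 3.48 ± 0.42, adjusted p = 5.05e-07). P2ry13, a purine receptor for ADP, showed the smallest adjusted p of the 7. It was 9.81, 10.35 and 10.65 in WT and 9.00, 9.39, 9.04 and 8.85 in IFNAR-/- DCs at 4 h, and 7.88, 8.13 and 8.64 against 10.64, 10.25 and 9.84 at 14 h (interaction 3.27 ± 0.26, adjusted p = 2e-10). It fell in WT and rose in IFNAR-/- DCs. Fcgr4, an activating Fc receptor of monocytes and macrophages, fell in WT DCs from 11.63, 12.87 and 13.58 to 8.44, 9.08 and 10.59 and was 11.99, 11.69, 10.70 and 11.51 and then 11.51, 11.45 and 11.42 in IFNAR-/- DCs (interaction 3.40 ± 0.61, adjusted p = 0.000167).

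All 180 genes called at neither time alone had genotype differences of opposite sign at 4 and 14 h, each below the limits by itself. Where both differences are under 2-fold, an interaction of at least 2-fold forces opposite signs, so this is not a separate result. Josd1, a deubiquitinase, was 9.09, 9.42 and 9.67 in WT and 10.42, 10.23, 10.53 and 10.10 in IFNAR-/- DCs at 4 h. At 14 h it was 10.65, 10.96 and 11.26 against 9.93, 10.06 and 10.21, and the groups did not overlap at either time (interaction -1.79 ± 0.16, adjusted p = 2.71e-09). Josd1 rose in WT DCs only. In the other direction, Eif4e3, a cap-binding translation factor, went from -0.86 at 4 h to 0.88 at 14 h (interaction 1.74 ± 0.21, adjusted p = 3.96e-07). Nceh1, a cholesterol ester hydrolase, went from -0.84 to 0.88 (interaction 1.72 ± 0.22, adjusted p = 1.69e-06). Both rose in IFNAR-/- DCs and fell in WT DCs by less than the fold limit. In WT DCs Eif4e3 was 8.68 to 9.33 at 4 h and 8.23 to 8.60 at 14 h.

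Of 32 classical antiviral genes measured, 1 was called (Ifitm3, 1.17 ± 0.32, adjusted p = 0.00997), against 7.02% of all genes. The median interaction of the list was 0.604 against -0.00537 over all genes. In 25 of the 32 it was above 0, against 4619 of all 9606 genes. Without WT 14 h replicate 6 the interaction of Ifitm3 was 0.91, under the fold limit. The median genotype difference was -3.09 at 4 h and -2.45 at 14 h. Isg15, the ubiquitin-like modifier, was 13.87, 14.15 and 14.74 in WT and 10.50, 9.88, 9.84 and 9.81 in IFNAR-/- DCs at 4 h, and 12.05, 13.18 and 13.96 against 9.82, 9.85 and 10.82 at 14 h. The groups were apart at both times, and the interaction of 1.26 ± 0.56 had an adjusted p of 0.129. Irf7, the factor that amplifies IFN-α production, had differences of -4.82 and -3.66 (interaction 1.16 ± 0.54, adjusted p = 0.152), and for Cxcl10, a ligand of CXCR3, the interaction was 0.61 (adjusted p = 0.57). Cd40, a costimulatory receptor, had a difference of -0.90 at 4 h and -1.90 at 14 h and an adjusted p of 0.00331, and fell just short of the fold limit (interaction -0.999 ± 0.24).

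Of the genes of energy metabolism, all 33 complex I subunit genes measured had an interaction above 0, with a median of 0.847, and 4 were called (Ndufa5, Ndufa12, Ndufb6 and Ndufc1). Of 35 genes of complexes III and IV and ATP synthase all 35 were above 0, with a median of 0.687 and 3 called. For 56 cytosolic ribosomal protein genes the count was 52, the median 0.512 and 1 was called, and for 70 mitochondrial ribosomal protein genes it was 56, 0.342 and 5. Over all 9606 genes, 4619 were above 0, the median was -0.00537 and 7.02% were called. The mean log2 signal of complex I genes was 10.11 to 10.39 in WT and 10.37 to 10.53 in IFNAR-/- DCs at 4 h, and 10.68, 10.57 and 10.89 in IFNAR-/- DCs at 14 h. In WT DCs at 14 h it was 9.67, 9.60, 9.98, 10.23, 10.20 and 8.56, the last in replicate 6. Without that replicate the medians were 0.558, 0.430, 0.240 and 0.243 and the counts of called genes 1, 2, 0 and 4, and without IFNAR-/- 14 h replicate 3 complex I again had 1 called. Under alternatives other than leaving out 1 sample, 0 to 7 complex I genes were called. For complexes III and IV and ATP synthase the range was 0 to 4. In the glycolysis and HIF1 target list, 4 of 18 were called, all above 0, against 7.02% of all genes. Besides Pfkp, whose difference was at 4 h only, these were Tpi1, Pkm and Ldha. Ldha makes lactate and went from a difference of 0.36 to 1.44 (interaction 1.08 ± 0.26, adjusted p = 0.00392). Ldha lost its call without WT 14 h replicate 2 or 6 or IFNAR-/- 14 h replicate 1, at an interaction of 0.98 to 0.99, and without WT 14 h replicate 6 the list had 3 called. Eno2, the enolase isoform described above, is not in the list and was called below 0 (interaction -2.94). Hif1a itself was not called (interaction 0.52).

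Of 18 cholesterol synthesis genes, 5 were called, against 7.02% of all genes. Of these, 4 were called below 0 (Hmgcs1, Cyp51, Msmo1 and Hsd17b7, enzymes of the pathway) and Ch25h above 0. Hmgcs1, the HMG-CoA synthase, was 11.18, 11.43 and 11.92 in WT and 12.43, 11.97, 12.05 and 12.09 in IFNAR-/- DCs at 4 h, and 11.35, 11.77 and 12.40 against 11.03, 11.17 and 10.70 at 14 h, higher in each IFNAR-/- sample at 4 h and lower at 14 h (interaction -1.47 ± 0.26, adjusted p = 0.000176). In the lysosome list 3 of 19 were called above 0 and 1 below, the tetraspanin Cd63 (-1.91 ± 0.39, adjusted p = 0.000662). In the apoptosis list Casp1 was called above 0 and Fas below, of 15. The list of RNA sensing and its signalling had Irf1 called below 0 and Ikbke above, of 23, the TCA cycle list had Sdhc above, of 19, and the MHC class II list had Lgmn below, of 14. None of the 28 proteasome, 20 cell cycle, 16 unfolded protein response or 18 immediate early genes was called, against 7.02% of all genes.

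**Figure D4:**
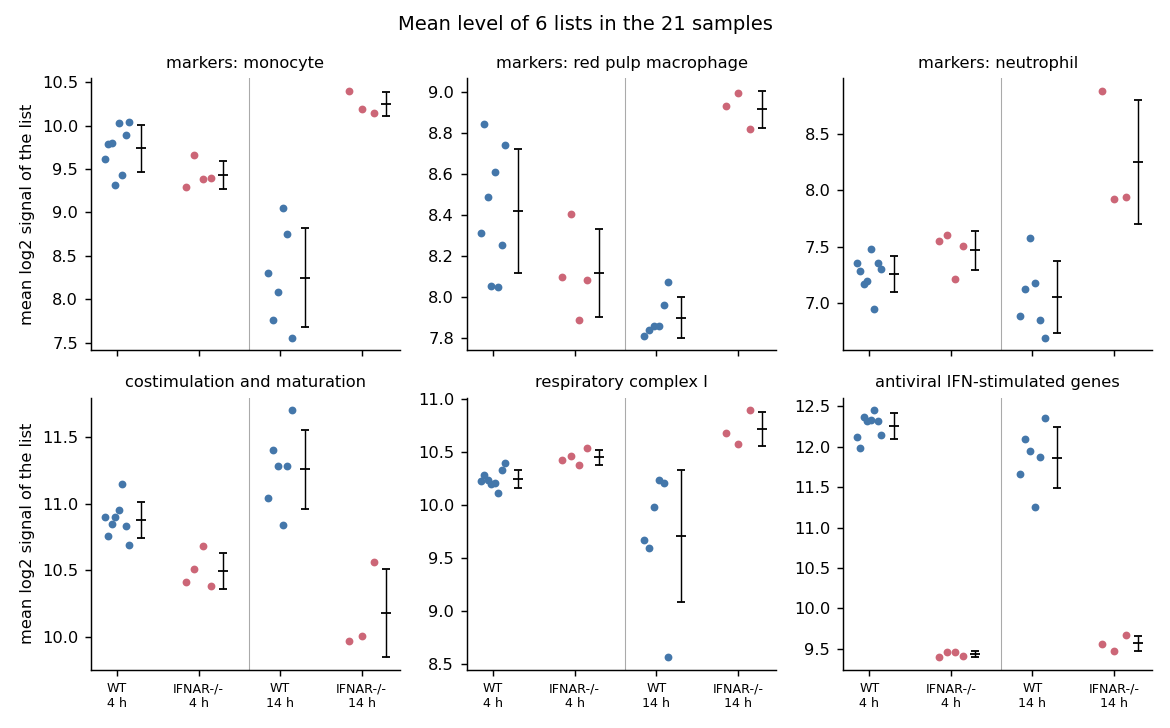
Each point is a sample and gives the mean log2 signal of the measured genes of a list, with WT in blue and IFNAR-/- in red, and bars beside the points give the mean and SD. The monocyte list is at 7.55 to 9.05 in WT and 10.14 to 10.40 in IFNAR-/- DCs at 14 h, and WT 14 h replicate 6 is the low point of complex I at 8.56.

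**Figure D5:**
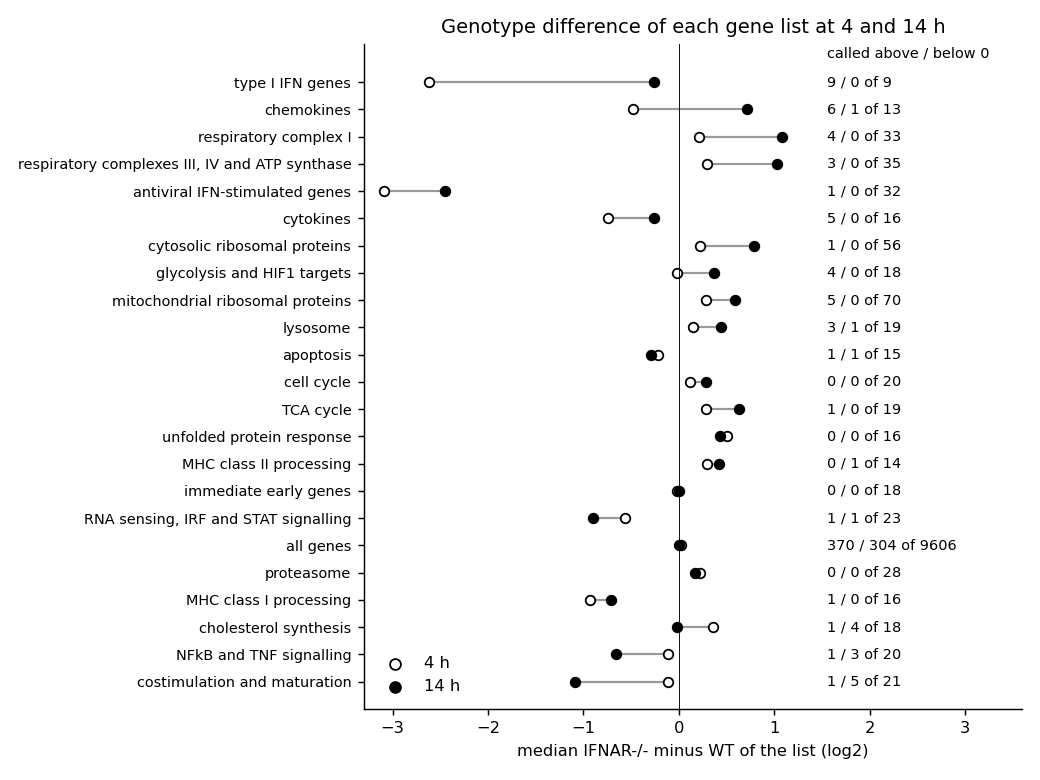
Open and filled circles give the median log2 difference IFNAR-/- minus WT of each list at 4 and at 14 h, ordered by the median interaction, with the number of called genes above and below 0 at the right. The type I IFN genes move from -2.62 to -0.259 and the costimulation and maturation genes from -0.115 to -1.09.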

How the data were processed

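The authors deposited bead intensity signals and detection p-values, as exported by BeadStudio (version not given in the sources used here), for RNA hybridised to MouseRef-8 v2.0 BeadChips, without normalization. The authors also deposited a table of log2 values from GeneSpring, quantile normalised and centred per probe on the median of all samples, used here only as an alternative. In R 4.3.3, each signal was raised to its array's lowest signal with detection p under 0.05, log2 transformed and quantile normalised over the 36 arrays. A normalised value at that floor says only that the probe was not above background, and the number of arrays limits the precision. Probes detected on at least 3 arrays were kept, and each of the 9606 genes took its probe of highest mean. limma 3.58.1 fitted 1 mean per group over 33 samples, after near-repeat arrays 1 and 2 had been averaged in 3 groups. In this fit, groups outside the contrast added only to the estimate of the spread. Their arrays also entered the normalization, the filter and the choice of probes. Of the genes tested, 40 were above background on none of the 22 arrays. P-values were two-sided and adjusted by Benjamini-Hochberg over all genes, and the procedure was tested on simulated data.

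Gene symbols were updated through Entrez identifiers. The named genes (83) were the up to 4 largest interactions per class and direction that were detected on every array of a group, the up to 3 largest called members of each gene list, and 10 fixed genes. The comparison, the gene lists and the rule were chosen with earlier results of these data known. Lists are described by counts and medians and were not tested as sets. Alternatives changed the background correction, normalization, filter, probe choice, samples and limits. The other groups of the series were not compared here.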

Additional observations from a re-analysis of the deposited data

Results flagged for a closer look

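The genotype difference itself differed between the 2 times for 674 genes, by the interaction test described above.

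In 247 groups of 4 to 8 samples of the named genes, 17 had a lowest or highest sample far from the others by Dixon's criterion, and chance flags about 1 in 20 groups. Of these, 7 were WT 14 h replicate 6. It was lowest for Ndufc1 (7.57, others 9.89 to 10.83), Ndufa5 (6.99, others 8.29 to 9.02), Ndufb6 (8.78, others 9.95 to 10.63), Uqcr11 (8.03, others 10.30 to 11.36) and Ifitm3 (12.92, others 14.22 to 14.93), and highest for Cd86 (13.53, others 12.28 to 12.72) and Ifna2 (7.77, others 6.50 to 6.88). WT 14 h replicate 4 was highest for Lpl (6.70, others 6.49 to 6.52) and Scarb2 (8.99, others 8.51 to 8.65). Among IFNAR-/- samples at 4 h, replicate 3 was lowest for Tspan3 (12.08, others 12.45 to 12.50), replicate 4 was highest for Ifna2 (6.62), Ch25h (6.63) and Flrt3 (9.08, others 8.68 to 8.71), with the other Ifna2 and Ch25h values at the floor, and the averaged arrays 1 and 2 were highest for Ndufa5 (10.25, others 9.30 to 9.45) and Isg15 (10.50, others 9.81 to 9.88). Among WT samples at 4 h, replicate 5 was highest for Chil1 (11.53, others 9.47 to 10.37) and replicate 8 lowest for Hif1a (8.70, others 9.20 to 9.65).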

How the results depend on the processing

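The count of called genes stayed within 1.5 times the 674 given above under all alternatives but one, from 538 (4 h samples of the largest set of similar samples only, chosen after seeing the data) to 999 (neqc background correction). Without the fold limit 1654 genes were called, 737 above and 917 below 0, of which 435 had a difference at 4 h only, 886 at 14 h only and 272 at both times, and 1157 moved in WT DCs only. With neqc, 463 were below 0, 539 had a difference at 14 h only, 63 at both times and 523 moved in WT DCs only. The cause was not tested. Leaving out 1 sample at a time gave 586 to 826 called genes, 326 to 463 above and 260 to 363 below 0, 105 to 127 with a difference at 4 h only, 289 to 476 at 14 h only and 16 to 26 at both times, and 299 to 425 that moved in WT DCs only. Counting IFNAR-/- 14 h arrays 1 and 2, the closest pair of that group, as 1 sample gave 618, and the 4 h sets of similar samples as a block 709, of which 666 were shared. The median interaction of all genes stayed between -0.0254 and 0.000232 under the scalings and filters tried. Same-numbered WT and IFNAR-/- samples deviated together at 4 h for numbers 1, 3 and 4 (correlations of 0.904, 0.467 and 0.49) but not for 5 (-0.087). At 14 h the correlations were -0.119 to 0.257, so numbers do not pair the samples throughout. Each 4 h set of similar samples held both genotypes, and the main fit did not model the sets. With the replicate block (time and number together) 804 genes were called, 603 of them shared. In that fit the genotype that moved cannot be estimated, because each block lies within 1 time. Of 75 named called genes, 50 were called under every alternative and 25 lost the call under at least 1, most often Uqcr11, Fgfbp3 and Ndufc1. Among 8 named genes not called, Cd40 was called under 13 alternatives, Irf7 under 3 and Isg15 under 2, and the interaction of Il15 ranged from -0.081 (without IFNAR-/- 14 h replicate 3) to 0.356 (without IFNAR-/- 14 h replicate 1) with 1 sample left out, and that of Sct turned to 0.0743 with arrays brought to 1 median.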
